A study of Mus musculus with 40 samples.

Results

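The genes described here are 9 vessel and leukocyte adhesion genes, chosen by name with earlier results of these data known. They are the leukocyte adhesion genes Sele, Selp, Icam1 and Vcam1, the endothelial identity genes Pecam1, Cdh5, Kdr and Vwf, and Vegfa, which encodes a growth factor for endothelium. All 9 were found by symbol among the 22552 genes of the deposited table, and all 9 reached 1 FPKM, a level corrected for transcript length and library size, in at least 1 group. Poly(A) RNA of whole mammary glands from outbred mice was sequenced in 31 libraries of 12 groups, with 2 libraries in 5 of the groups and 3 in the other 7. Each group has a single column in the table. Every level is therefore the authors' value for a whole group, with no replicate value, error or test, and each difference describes 2 pooled columns. The chromatin libraries of the series were not analysed here.

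Controls carried the MMTV-Cre genotype. The genotype of the groups named E2KO was Ezh2f/f;control, that of E1KO was E1-/-, and that of E1+/-E2KO was E1+/-;E2f/f;control. Virgin mice at 12 weeks gave Control and E2KO groups, each without and with prolactin (PRL) at 5 µg per g of body weight. Pregnant mice gave all 4 genotypes at day 13 (p13) and at day 18 (p18). The labels describe a deletion of Ezh2 specific to the mammary gland, made by mating to a transgenic line, and give no deletion in endothelium. In the prolactin design the left gland was taken under avertin at estrus, with its lymph node removed, and the right gland was taken 2 h after the later injection. Time, anaesthesia and surgery therefore came with the hormone and cannot be told apart from it.

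Endothelial cells line the blood vessels. On activation by inflammatory signals they show E-selectin (Sele) and P-selectin (Selp), which let leukocytes tether and roll, and the immunoglobulin-like molecules ICAM-1 (Icam1) and VCAM-1 (Vcam1), to which leukocyte integrins bind for firm arrest. PECAM-1 and VE-cadherin (Cdh5) sit at the junctions between endothelial cells, VEGF receptor 2 (Kdr) receives the signal of VEGF-A, and von Willebrand factor (Vwf) is stored with P-selectin in the Weibel-Palade granules of endothelium. In the mammary gland, capillaries surround the ducts and alveoli and supply the secretory epithelium.

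The labels and the cell makeup of the columns were checked first. Cish, a known target of prolactin signalling through STAT5, stood at 6.64 and 62.3 FPKM in untreated and PRL-treated Control virgins and at 11.0 and 51.1 FPKM in E2KO virgins. Ezh1 stood at 1.06 and 0.627 FPKM in E1KO at p13 and p18, against 14.7 and 7.37 FPKM in Control. Ezh2 did not separate the groups in the same way. In untreated E2KO virgins it stood at 5.55 FPKM, and in E2KO at p13 at 13.7 FPKM, against 4.98 and 12.9 FPKM in Control. It was below Control in PRL-treated E2KO virgins (4.64 against 6.74 FPKM) and in E2KO at p18 (6.41 against 10.0 FPKM). E1+/-E2KO was also below Control, at 9.54 against 12.9 FPKM at p13 and 6.24 against 10.0 FPKM at p18. The E2KO groups are therefore named here as labelled. The tissue markers Krt8, of luminal epithelium, and Adipoq, of adipocytes, were at or above 152 and 333 FPKM in every group. All 34 genes of an endothelial list, which holds the 4 identity genes, reached 1 FPKM in some group. The summed level of 8 leukocyte genes was 66.5 FPKM in untreated and 261 FPKM in PRL-treated Control virgins, but 346 FPKM in untreated and 46.3 FPKM in PRL-treated E2KO virgins. The B cell gene Cd79a followed the same crossed order, with 1.63, 49.7, 60.9 and 0.383 FPKM. The protocol gives removal of the lymph node for the left, untreated gland, yet these genes were high in the untreated E2KO column. Whether lymph node tissue or exchanged labels bear on the comparisons among virgin columns was not tested. Cish was high in both columns labelled PRL, whatever the genotype, so it cannot show genotypes exchanged between columns of the same treatment. Milk protein genes held at most 0.261% of the summed FPKM in virgins, 1.70% to 14.7% at p13 and 29.9% to 47.0% at p18. The columns do not share a common sum: it was 581531 FPKM in untreated E2KO virgins and 1.15e+06 FPKM in E1+/-E2KO at p18. How far the milk share lowers the FPKM of other genes was not tested.

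RefSeq promoters on GRCm38.p6 were found for 5 of the 9 genes, Sele, Selp, Icam1, Kdr and Vegfa, with 2 start sites for Vegfa. Those of the 4 among them that differed by 1 or more with prolactin in both genotypes are shown, and each window holds the 250 bases before the start site, 5′ to 3′ on the gene's strand. Capitals mark matches to the STAT motif TTCNNNGAA, which is its own reverse complement, in the windows of Sele (chr1:164047984-164048233, plus strand) and Icam1 (chr9:21015690-21015939, plus strand). The window of Selp (chr1:164115014-164115263, plus strand) held no match and has no capitals. In the window of Vegfa (chr17:46032378-46032627, minus strand) the capitals mark a match to the NF-kappaB motif.
Sele: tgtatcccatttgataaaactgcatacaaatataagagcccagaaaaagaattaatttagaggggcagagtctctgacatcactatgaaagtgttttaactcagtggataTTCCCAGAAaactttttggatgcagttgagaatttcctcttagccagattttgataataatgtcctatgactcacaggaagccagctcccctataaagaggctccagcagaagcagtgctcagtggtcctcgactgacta
Selp: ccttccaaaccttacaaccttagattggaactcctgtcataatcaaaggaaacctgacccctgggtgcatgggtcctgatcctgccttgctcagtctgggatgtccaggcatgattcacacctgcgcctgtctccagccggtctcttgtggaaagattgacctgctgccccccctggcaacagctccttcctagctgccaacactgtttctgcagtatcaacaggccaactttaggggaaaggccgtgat
Icam1: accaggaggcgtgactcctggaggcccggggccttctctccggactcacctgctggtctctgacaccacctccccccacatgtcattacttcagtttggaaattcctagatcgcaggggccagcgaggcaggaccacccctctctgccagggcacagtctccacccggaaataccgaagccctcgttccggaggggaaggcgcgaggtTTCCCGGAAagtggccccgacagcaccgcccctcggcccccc
Vegfa: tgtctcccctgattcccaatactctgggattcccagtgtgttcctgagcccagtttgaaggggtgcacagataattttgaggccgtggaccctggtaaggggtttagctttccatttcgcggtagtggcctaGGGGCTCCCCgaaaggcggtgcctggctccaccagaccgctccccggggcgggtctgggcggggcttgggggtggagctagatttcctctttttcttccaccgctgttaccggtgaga
The STAT match lay 140 to 132 bases before the start site of Sele and 42 to 34 bases before that of Icam1. The motif was searched on both strands, and 7.02% of the 32851 promoters of the table held it, as did 2 of the 6 promoters found here. The NF-kappaB motif was held by 3.90% of all promoters and by 2 of these 6: the Vegfa window above, 118 to 109 bases before its start, and that of Kdr, with GGGAGTCCCC 74 to 65 bases before its start. The Selp window held no match to either motif. The core letters of ETS sites, GGAAG, occurred in all 6 promoters and in 64.1% of all promoters. Those of the hypoxia element, ACGTG, occurred in 1 of the 6, at the second Vegfa start, and in 16.6% of all. That window (chr17:46025164-46025413, minus strand) lies downstream of the first Vegfa start and is not shown. No window held both STAT and NF-kappaB matches to these letters. Sites that depart from the letters were not searched, so a window without a match may still hold such a site.

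Both selectins were much higher in the columns with injected prolactin than in any of the other 10. Sele stood at 0.412 FPKM in untreated and 6.03 FPKM in PRL-treated Control virgins, and at 0.300 and 24.7 FPKM in E2KO virgins. In pregnancy its 8 values ran from 0.0480 to 0.431 FPKM. Sele thus lay below 1 FPKM in all 10 groups without injected prolactin. The PRL columns were 14.6-fold higher in Control and 82.5-fold higher in E2KO, which are 2.32 and 4.31 on the log2(FPKM + 1) scale used for all differences here. Both folds start from levels near the floor of the table, where read depth is unknown. Selp stood at 2.06 and 20.1 FPKM in Control virgins and at 3.61 and 67.1 FPKM in E2KO virgins, a difference of 2.79 (9.77-fold) and 3.88 (18.6-fold). Its pregnancy values, 1.13 to 4.33 FPKM, spanned those of untreated virgins. Cish ran from 24.8 to 43.9 FPKM in the 8 pregnancy columns, above its 6.64 and 11.0 FPKM in untreated Control and E2KO virgins. The part of prolactin signalling in pregnancy was not tested.

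**Figure D1:**
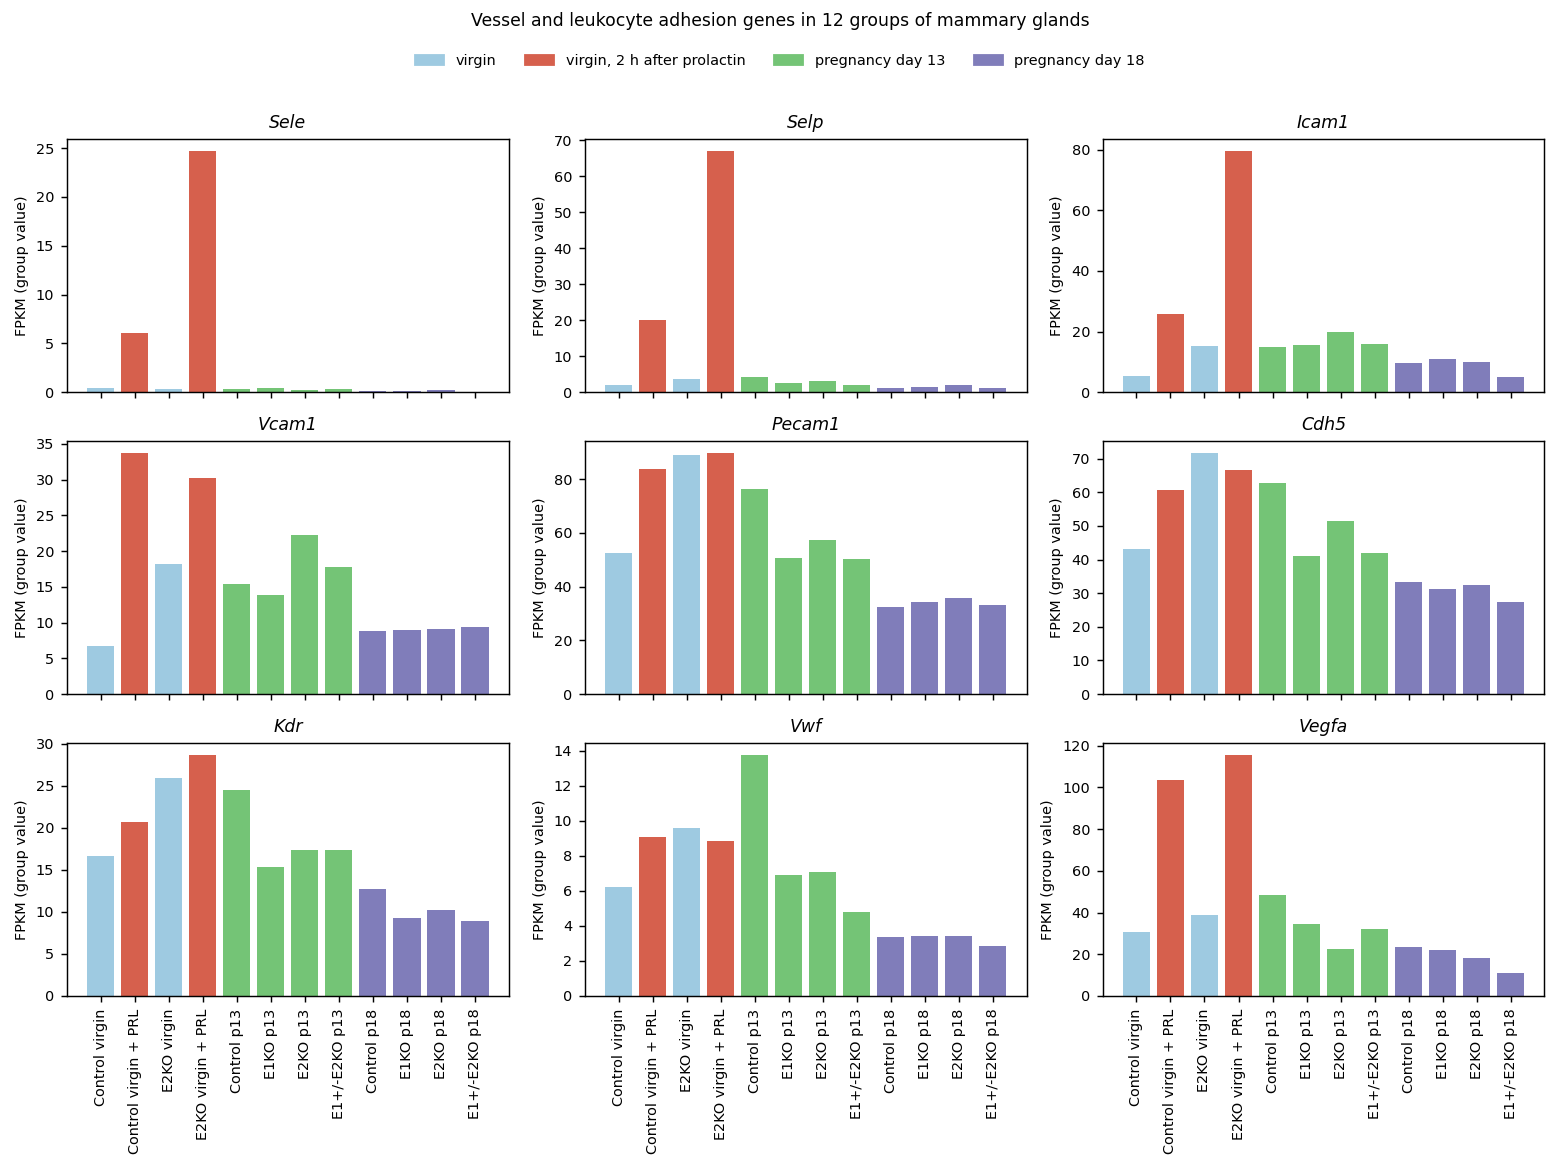
FPKM of the 9 genes in the 12 group columns, a panel per gene with its own linear axis from 0, 1 bar per pooled column and no error bars. The PRL columns of Sele and Selp stand apart from the other 10 columns, while Pecam1, Cdh5 and Kdr span less than 4-fold over all 12.

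Of the 2 immunoglobulin-like adhesion genes, Icam1 was higher with prolactin in both genotypes and Vcam1 mainly in Control. Icam1 stood at 5.38 and 25.7 FPKM in Control (2.07, 4.78-fold) and at 15.2 and 79.5 FPKM in E2KO (2.31, 5.23-fold). Vcam1 stood at 6.73 and 33.8 FPKM in Control (2.17, 5.02-fold) and at 18.2 and 30.3 FPKM in E2KO (0.70, 1.66-fold). The PRL values of Vcam1 were close to each other, and the smaller E2KO difference goes with the higher untreated E2KO value. Vegfa, a ligand made by many cell types, stood at 30.5 and 104 FPKM in Control (1.73, 3.40-fold) and at 38.8 and 116 FPKM in E2KO (1.55, 2.98-fold).

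The identity genes differed far less. Pecam1 stood at 52.5 and 83.9 FPKM in Control (0.67, 1.60-fold) and at 89.0 and 89.8 FPKM in E2KO (0.01). Cdh5 stood at 43.2 and 60.6 FPKM in Control (0.48) and at 71.7 and 66.6 FPKM in E2KO (-0.11). Kdr stood at 16.6 and 20.8 FPKM in Control (0.30) and at 26.0 and 28.7 FPKM in E2KO (0.14). Vwf stood at 6.22 and 9.08 FPKM in Control (0.48) and at 9.56 and 8.87 FPKM in E2KO (-0.10). None of these 8 differences reached 1. In bulk tissue, fewer cells of a type and less RNA per cell cannot be told apart.

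Counted together, 5 of the 9 genes were higher by 1 or more with PRL in Control, where 4.76% of the 14273 genes kept were. In E2KO 4 of the 9 were, against 2.75% of the genes kept. Sele is counted in both genotypes, although it reached 1 FPKM, and so was kept, only through the 2 PRL columns. The 9 genes were chosen with earlier results of these data known, so these counts are a description only. The median difference of the 4 adhesion genes was 2.24 in Control and 3.10 in E2KO, that of the 4 identity genes 0.48 and -0.04, and that of all genes 0 in both. By size of difference from the highest, Selp ranked 70, Sele 120, Vcam1 140, Icam1 153 and Vegfa 229 in Control. In E2KO, Sele ranked 21, Selp 26, Icam1 62, Vegfa 153 and Vcam1 684. The 5 genes past the threshold in Control are the 4 adhesion genes and Vegfa, and in E2KO Vcam1 is the one that was not. As a base for the lists below, 245 of the 14273 genes were lower by 1 or more with PRL in Control and 582 in E2KO.

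**Figure D2:**
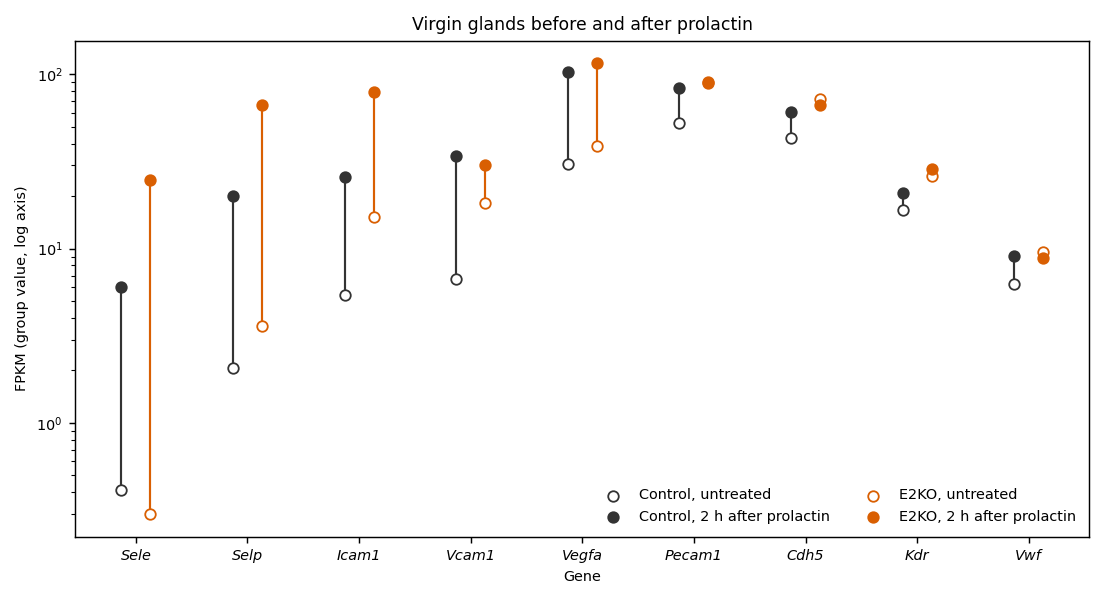
FPKM of the 9 genes on a log axis in virgin glands, with open circles for untreated and filled circles for PRL-treated columns, joined by a line, in Control (black) and E2KO (orange). The lines are longest for Sele, from 0.300 to 24.7 FPKM in E2KO, and shortest for the identity genes in E2KO.

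The rest of the endothelium was summarised by the geometric mean of the 30 listed endothelial genes that are not among the 9. It was 13.8 FPKM in untreated and 14.8 FPKM in PRL-treated Control virgins, and 19.7 and 16.6 FPKM in E2KO virgins. Relative to it, Sele was 13.7-fold higher with PRL in Control and 98.0-fold in E2KO, Selp 9.12-fold and 22.1-fold, and Icam1 4.46-fold and 6.22-fold. Vcam1 was 4.68-fold and 1.97-fold higher on that scale, and Vegfa 3.17-fold and 3.54-fold. Pecam1, Cdh5, Kdr and Vwf were each at most 1.49-fold higher. The RNA came from whole glands, so these ratios do not show which cells held it. Among the 30 genes, 2 were higher and 2 lower by 1 or more in Control (median 0.27), and 1 higher and 4 lower in E2KO (median -0.14). Sox17, a transcription factor of arterial endothelium, stood at 3.10 and 21.7 FPKM in Control and at 4.55 and 24.3 FPKM in E2KO. Aplnr, the apelin receptor, stood at 10.1 and 1.51 FPKM in Control and at 21.1 and 3.55 FPKM in E2KO.

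**Figure D3:**
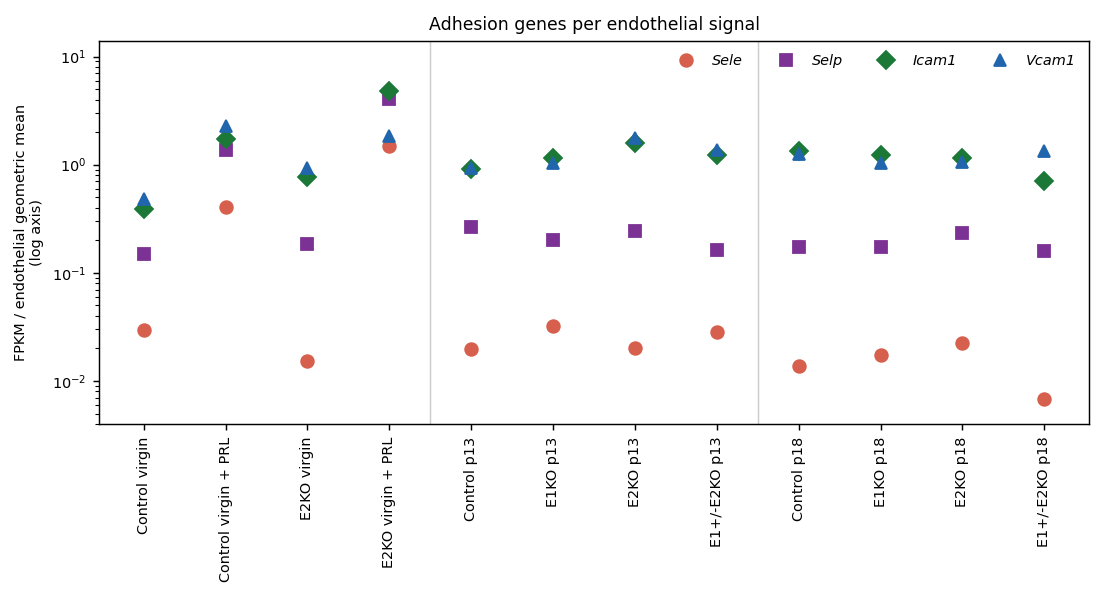
FPKM of Sele, Selp, Icam1 and Vcam1 divided by the geometric mean of 30 other endothelial genes, on a log axis, 1 point per group column. Per endothelial signal, Sele reached 1.49 and Selp 4.04 in the E2KO column with PRL, against 0.0152 and 0.183 in untreated E2KO.

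Most genes of an inflammatory list stood higher beside the adhesion genes. Of the 13 genes kept of that list, without Sele, Icam1 and Vcam1, 9 were higher by 1 or more with PRL in Control and 7 in E2KO. The medians were 1.45 and 1.32, and none was lower by 1 or more. The cytokine gene Il6 stood at 0.0884 and 4.88 FPKM in Control and at 0.105 and 7.21 FPKM in E2KO. Csf3, which encodes the granulocyte growth factor G-CSF, stood at 0.259 and 3.29 FPKM and at 0.158 and 9.36 FPKM. The chemokine gene Cxcl1 stood at 0.996 and 5.82 FPKM and at 0.886 and 8.88 FPKM. Nfkbia, an inhibitor of NF-kappaB that is itself a target of it, stood at 77.8 and 214 FPKM and at 75.3 and 198 FPKM. Il6 and Csf3 were below 1 FPKM in the 10 groups without injected prolactin, so they were kept only through the PRL columns. Tnf was lower with PRL, at 0.658 and 0.521 FPKM in Control and 1.63 and 0.560 FPKM in E2KO. In E2KO, Ccl2 (5.65 and 5.09 FPKM) and Irf1 (44.7 and 41.9 FPKM) were also lower.

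Other lists read with the vessel genes gave smaller counts. Of 10 hypoxia target genes other than Vegfa, 1 was higher and 1 lower in each genotype, with medians of 0.27 and 0.30: Adm, the vasodilator adrenomedullin, stood at 7.26 and 54.0 FPKM in Control and at 9.35 and 43.9 FPKM in E2KO. Of 14 VEGF and angiopoietin genes without Vegfa and Kdr, 1 was higher and 1 lower in Control and 2 were lower in E2KO. None of 8 other Weibel-Palade genes passed 1 in either genotype. Of 16 ligands and receptors of leukocyte adhesion without the 4 genes, 3 were higher in Control (median 0.45) and 7 lower in E2KO (median -0.78).

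Markers of blood cells moved with some of these columns. Of 8 neutrophil genes kept, 6 were higher with PRL in Control and 4 in E2KO, with S100a9 at 3.46 and 90.6 FPKM and at 10.3 and 182 FPKM. The summed neutrophil list was 33.8 and 247 FPKM in Control and 45.0 and 445 FPKM in E2KO, and ran from 8.46 to 39.2 FPKM in pregnancy. It was thus highest in the columns where Sele and Selp were highest. Its part in the result was not tested. The leukocyte list, in contrast, was lower by 1 or more in 8 of 8 genes with PRL in E2KO (median -3.27) and higher in 7 of 8 in Control (median 2.39). Sele, Selp and Icam1 were therefore highest in the column in which the summed leukocyte list was 46.3 FPKM, below the other 3 virgin columns. Glycam1, which marks high endothelial venules of lymph nodes as well as milk, stood at 13.7, 864, 743 and 2.10 FPKM in the same crossed order. Platelets also carry P-selectin, PECAM-1 and von Willebrand factor. Of 11 platelet genes, 7 were below 1 FPKM in every group, and the summed list was 68.8 and 45.9 FPKM in Control and 54.8 and 39.7 FPKM in E2KO, lower with PRL. Most of that sum was Pf4, at 63.8 and 41.1 FPKM in Control and 47.3 and 34.9 FPKM in E2KO. The other platelet genes were low and mixed, with Clec1b at 0.427 and 0.985 FPKM and Ppbp at 1.44 and 0.916 FPKM in Control. The summed muscle list was higher with PRL, at 64.4 and 280 FPKM and at 40.5 and 436 FPKM, although 8 of 10 muscle genes in Control and 5 of 10 in E2KO were lower by 1 or more. The exception was Acta1, a skeletal actin gene, at 13.0 and 273 FPKM and at 8.46 and 431 FPKM.

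**Figure D4:**
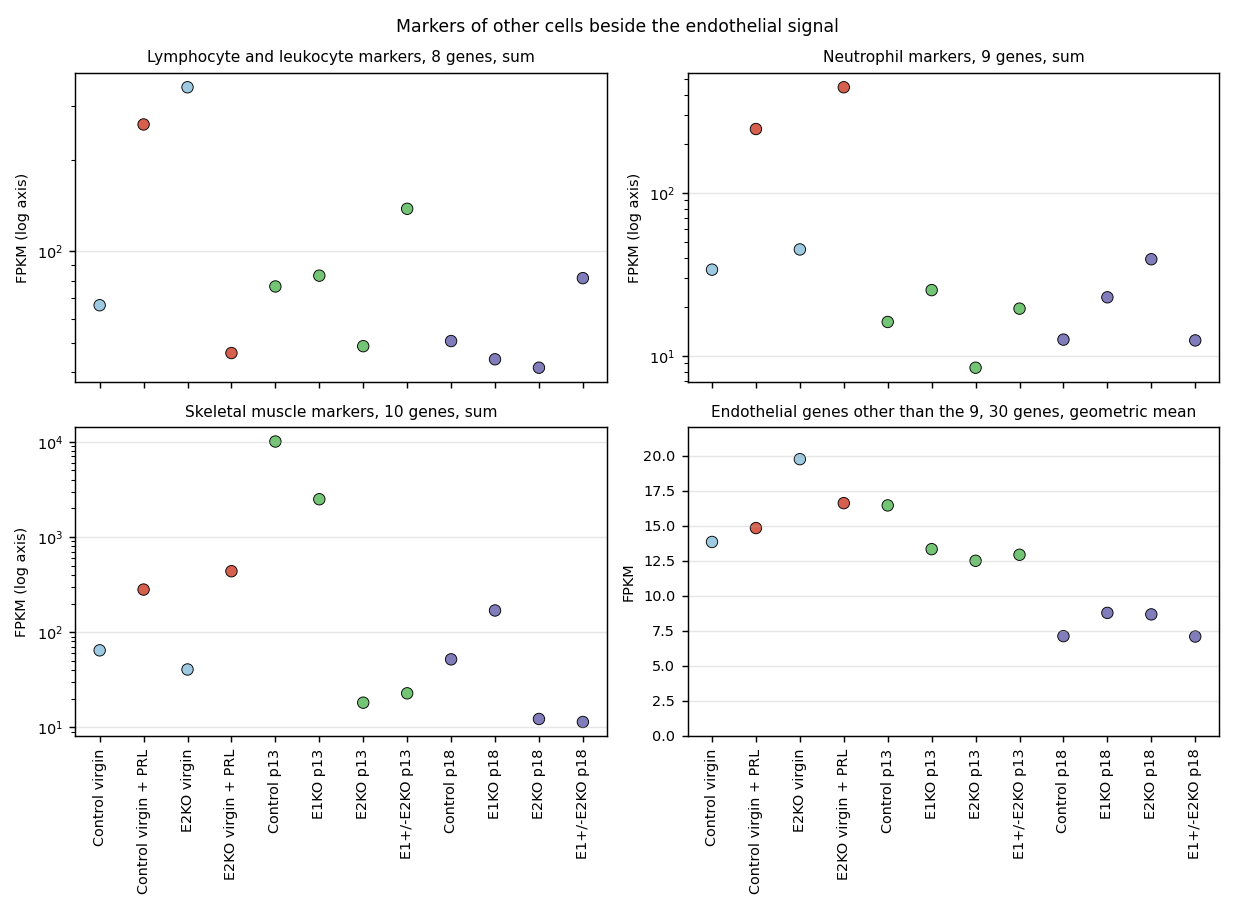
Summed FPKM of leukocyte, neutrophil and skeletal muscle markers on log axes, and the geometric mean FPKM of 30 endothelial genes on a linear axis, 1 point per group column. Neutrophil genes are high in both PRL columns, and the leukocyte list is high in the PRL-treated Control and the untreated E2KO columns.

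Genotype differences among virgins share the columns of the prolactin comparisons. Without prolactin, Icam1 (1.35, 2.83-fold) and Vcam1 (1.32, 2.71-fold) were higher in E2KO than in Control, 2 of the 9 genes against 3.35% of all genes. Pecam1 (0.75), Cdh5 (0.72), Kdr (0.61), Selp (0.59) and Vwf (0.55) were also above Control, though below 1, and the 30 other endothelial genes had a median of 0.56 with none past 1. Sele was the one gene below Control (-0.12), at 0.300 against 0.412 FPKM, too low for an order to be read. All 8 leukocyte genes were higher in the same column (median 2.99), and so were 4 of 6 venule genes; their part in the result was not tested. Divided by the endothelial signal, Icam1 was at 0.389 in Control and 0.770 in E2KO, and Vcam1 at 0.486 and 0.924, and with columns scaled to that signal 0 of the 9 genes passed 1.

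With prolactin, Sele (1.87, 4.10-fold), Selp (1.69, 3.33-fold) and Icam1 (1.59, 3.09-fold) were higher in E2KO than in Control. These are 3 of the 9 genes, against 0.764% of all genes, and Sele was kept only through these 2 columns. Vcam1 differed by -0.15, Vegfa by 0.16 and Kdr by 0.45. In this comparison the neutrophil list gave 445 against 247 FPKM, and all 8 leukocyte genes were lower in E2KO. Whether the prolactin difference itself depends on genotype could not be tested with 1 value per group.

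At p13, Control had the highest value of the 4 genotypes for Selp, Pecam1, Cdh5, Kdr, Vwf and Vegfa. The 3 comparisons with it share that column. Vwf stood at 13.8 FPKM in Control, 6.93 in E1KO, 7.06 in E2KO and 4.80 in E1+/-E2KO. Vegfa stood at 48.4 FPKM in Control, 34.5 in E1KO, 22.3 in E2KO and 32.2 in E1+/-E2KO. Pecam1 stood at 76.3, 50.5, 57.4 and 50.4 FPKM in that order, Cdh5 at 62.7, 41.0, 51.5 and 41.8, and Kdr at 24.5, 15.4, 17.3 and 17.4. For these 5 genes all 3 mutant columns lay below the single Control value, which held in every rescaling tried except for Cdh5 in E2KO, at 0.11 with columns scaled to the endothelial signal.

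The adhesion genes had no common order of genotypes at p13. Selp stood at 4.33 FPKM in Control, 2.67 in E1KO, 3.02 in E2KO and 2.08 in E1+/-E2KO. Icam1 stood at 15.0, 15.4, 19.7 and 16.0 FPKM and Vcam1 at 15.4, 13.8, 22.2 and 17.8 FPKM in the same order, both highest in E2KO. Sele was at 0.324, 0.431, 0.254 and 0.364 FPKM, too low for an order to be read.

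Few of these p13 differences reached 1. In E2KO, Vegfa (-1.08, 2.17-fold) was lower, 1 of 9 genes against 6.59% of all genes, and 0 of 9 passed with columns scaled to reference genes, to the endothelial signal or to a sum without milk genes. In E1+/-E2KO, Vwf (-1.35, 2.87-fold) was lower, 1 of 9 against 3.19%, which held in every rescaling but not with a pseudocount of 5. None of the 9 passed in E1KO, where 4.38% of all genes did in either direction, with Vwf at -0.90 and Kdr at -0.64. Icam1 and Vcam1 were above Control in E2KO, by 0.37 and 0.50. E1+/-E2KO and E2KO differed by less than 1 in all 9 genes, against 3.46% of all genes past 1, with Vegfa at 0.51 and Vwf at -0.47. Among the 30 other endothelial genes, none passed in E1KO (median -0.24), 2 were lower in E2KO (median -0.42) and 1 in E1+/-E2KO (median -0.34). S1pr1, a sphingosine phosphate receptor of endothelium, stood at 44.0 FPKM in Control and at 22.3, 21.2 and 21.4 FPKM in E1KO, E2KO and E1+/-E2KO.

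The Control column at p13 also stood apart in other cell types. Skeletal muscle genes summed to 10057 FPKM there, against 2490, 18.2 and 22.8 FPKM in E1KO, E2KO and E1+/-E2KO, and erythroid genes to 5067 FPKM against 2417, 1098 and 2140 FPKM. In E2KO at p13, 7 of 10 adipocyte genes (median -1.28) and 6 of 10 macrophage genes (median -1.04) were lower by 1 or more than in Control. Of 10 hypoxia targets other than Vegfa, 4 were lower in E2KO (median -0.43), with Bnip3, a mitochondrial protein gene, at 88.8 against 272 FPKM. The part of these markers in the vessel differences was not tested.

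**Figure D5:**
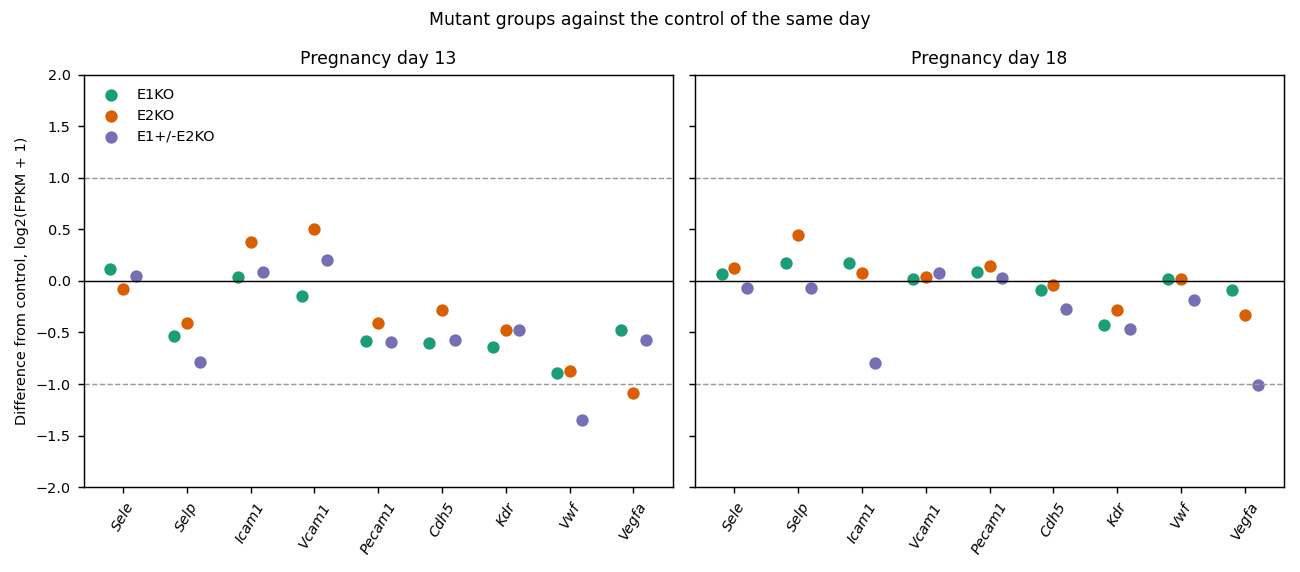
Difference of E1KO, E2KO and E1+/-E2KO from Control of the same day on the log2(FPKM + 1) scale for the 9 genes, with dashed lines at 1 and -1. At p13 all 3 groups lie below 0 for Selp, Pecam1, Cdh5, Kdr, Vwf and Vegfa, and at p18 Vegfa in E1+/-E2KO (-1.01) is the one point past a line.

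At p18 the genotypes lay closer together for the identity genes. Pecam1 ran from 32.4 to 35.9 FPKM, Cdh5 from 27.5 to 33.4, Kdr from 8.91 to 12.7 and Vwf from 2.86 to 3.44. Control was still the highest for Kdr, and E1+/-E2KO lay as far below it (-0.47) as at p13 (-0.47). None of the 9 genes differed by 1 in E2KO, where 4.53% of all genes did, or in E1KO, where 2.60% did. In E1+/-E2KO, Vegfa stood at 11.0 FPKM against 23.3 FPKM in Control (-1.01, 2.11-fold), 1 of 9 against 1.55% of all genes, and 0 of 9 with a pseudocount of 5. Icam1 stood at 5.02 FPKM there against 9.47 in Control, 10.8 in E1KO and 10.1 in E2KO. Compared with E2KO, none of the 9 passed in E1+/-E2KO (Icam1 -0.88, Vegfa -0.69), against 2.56% of all genes. The endothelial signal was 7.12 FPKM in Control, 8.78 in E1KO, 8.67 in E2KO and 7.09 in E1+/-E2KO.

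Stages were compared within each genotype, and the comparisons share columns with those above. Icam1 (1.33, 2.79-fold), Vcam1 (1.08, 2.29-fold) and Vwf (1.03, 2.21-fold) were higher at p13 in Control, 3 of 9 against 9.12% of all genes, whose median was 0.17. With columns scaled to reference genes, an upper quartile or a common sum, 1 of the 9 passed. In E2KO none of the 9 passed, against 20.1% of all genes, and 7 of the 9 were lower at p13. The untreated E2KO virgin column stood above the untreated Control one for 8 of the 9 genes, and its part in this result was not tested. From p13 to p18 all 9 differences were negative in each of the 4 genotypes, as was the median of all genes, which was -0.46 in Control and from -0.48 to -0.45 in the others. In Control, Vwf (-1.75, 4.06-fold), Selp (-1.25, 3.51-fold), Pecam1 (-1.21, 2.35-fold) and Vegfa (-1.02, 2.08-fold) were lower by 1 or more, 4 of 9 against 19.1% of all genes. In E2KO this was Vcam1 alone (-1.20), 1 of 9 against 4.10%. In E1+/-E2KO it was Icam1 (-1.50) and Vegfa (-1.46), 2 of 9 against 16.0%, and in E1KO none, against 13.7% in either direction. With columns scaled to the endothelial signal, signs turned in every genotype. In Control the adhesion median was then 0.15 and the identity median 0.11, with Icam1 at 0.51, Vcam1 at 0.38, Cdh5 at 0.29, Kdr at 0.25 and Vegfa at 0.15. Signs also turned on that scale for Icam1, Pecam1 and Cdh5 in E1KO, for Sele and Vegfa in E2KO, and for Pecam1, Cdh5 and Vwf in E1+/-E2KO, whose identity median was 0.18. At a common upper quartile they turned for the same 3 genes in E1KO and the same 2 in E2KO, and at reference genes for Vegfa in E2KO. The negative sign of all 9 genes thus holds for the values as deposited.

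The order of the columns differed between the adhesion and the identity genes. Sele, Selp, Icam1 and Vegfa had their highest values in PRL-treated E2KO, followed by PRL-treated Control, and Vcam1 had these 2 columns in the opposite order. Pecam1, Cdh5 and Kdr were highest in E2KO virgins, with their lowest values at p18, and Vwf was highest in Control at p13. Neighbouring columns in these orders cannot be separated, since no column has a spread. From highest to lowest column, Sele spanned 515-fold, Selp 59.4-fold and Icam1 15.8-fold, while Pecam1 spanned 2.77-fold, Cdh5 2.61-fold and Kdr 3.22-fold. The adhesion gene Vcam1 (5.02-fold) and the identity gene Vwf (4.80-fold) had nearly the same span.

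Likeness across the 12 columns was described by Pearson's r of log2(FPKM + 1), over columns that share the normalisation and include 2 far points with prolactin. Pecam1 and Cdh5 had r = 0.98, Cdh5 and Kdr 0.97, and all 6 pairs of identity genes had r of 0.9 or more. Sele and Selp had r = 0.98 over 12 columns and 0.67 over the 10 without injected prolactin, where Selp was closer to Vwf (0.95) and Pecam1 (0.92). Among 8299 genes, the 5 most like Sele were Csf3 (0.995), Gm16548 (0.986), Mmp8 (0.980), Il6 (0.980) and Setdb2 (0.979), and the one most like Selp was Gm16548 (0.988), followed by Ankrd9 (0.984) and Sele itself (0.976). The gene most like Icam1 was Pnpla7 (0.949), the one most like Vcam1 was Smad1 (0.953) and the one most like Vegfa was 4930562F07Rik (0.977). For Pecam1 they were Cdh5 (0.982) and Robo4 (0.977), an endothelial guidance receptor gene, for Kdr Robo4 (0.981), and for Vwf Tmtc1 (0.962).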

How the data were processed

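RNA values are FPKM from the authors' deposited table, 1 column for each of 12 groups of 31 libraries. The sources used here do not say how a group's libraries were combined. Per the submitters' processing notes, tools including TopHat, Cufflinks and Cuffdiff and the build mm9 were used, with versions left out. Depth is unknown, and whole reads could not be recovered, since the most common ratio between 2 columns covered 1.79% of 1282 low genes. None of 14 reference genes was at 0 in any group. A limma model was planned but needs values per library, so the fallback written with it was used. Differences are log2(FPKM + 1) of the first minus the second group, which understates low genes, and folds are FPKM ratios. Genes with at least 1 FPKM in some group (14273) were kept, and 18 comparisons were made. Differences of 1 or more were counted, as a description. The 9 genes and all lists were chosen with earlier results of these data known. Named genes are the 9, the 5 most like each, and up to 4 per list with the largest differences. Nfkbia, Cd79a, S100a9, Glycam1, Cish, Krt8 and Adipoq were named as markers or after their values were seen. Alternatives were pseudocounts of 0.1 and 5, filters of 0 and 5 FPKM, a 1.5-fold threshold and rescaled columns. Values were computed in Python 3.11.15 with NumPy 2.4.6 and pandas 2.3.3 and drawn with matplotlib 3.10.9, and the functions were tested on simulated data.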

Additional observations from a re-analysis of the deposited data

How the results depend on the processing

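The prolactin comparisons in Control and E2KO and that of E2KO with Control under prolactin kept their counts within 1.5 times under all 11 alternatives and their medians on the same side of 1 under the 10 that bear on medians. Over these, the Sele difference with PRL ran from 1.03 to 3.58 in Control and from 2.49 to 5.96 in E2KO, and that of Selp from 1.83 to 3.23 and from 3.06 to 4.18. The other comparisons were less stable. Of 198 counts of genes past 1, 53 moved by more than 1.5 times, and of 180 medians each of the adhesion and identity genes, 9 and 8 changed side of 1, 1 of the latter with a turned sign. A further 10 adhesion and 8 identity medians below 1 in size turned in sign. Filters changed none of the counts or sides. No paired analysis was possible because each group has 1 pooled value and the columns carry no replicate numbers, and for the same reason no replicate could be left out.

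In E2KO against Control untreated virgins, the count of 2 was 0 with columns at a common endothelial signal or a pseudocount of 5, and 6 at 1.5-fold. The adhesion median of 0.95 was 1.06 at a common sum, 1.03 without milk genes in the sum, 1.03 also without muscle and erythroid genes (a setting chosen after seeing the data) and 1.10 with a pseudocount of 0.1. In E2KO against Control at p13, the count of 1 was 0 at a common endothelial signal, common reference genes, a sum without milk or a pseudocount of 5, and 2 at 1.5-fold. For E1KO at p13, 0 was 4 at 1.5-fold. For E1+/-E2KO at p13, 1 was 2 with a pseudocount of 0.1, 0 with 5 and 3 at 1.5-fold. For E1+/-E2KO against Control at p18, 1 was 2 at reference genes, at both sums without milk and at 1.5-fold, and 0 with a pseudocount of 5. Against E2KO at p18, 0 was 1 at reference genes and at both sums without milk, and 2 at a common sum and at 1.5-fold.

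For p13 against virgins in Control, 3 was 1 at a common endothelial signal, reference genes, upper quartile, common sum or sum without milk, 0 with a pseudocount of 5 and 5 at 1.5-fold, and the adhesion median of 0.94 was 1.11 with a pseudocount of 0.1. In E2KO, 0 was 1 at a common sum and 2 at 1.5-fold. For p18 against p13 in Control, 4 was 0 at the endothelial signal, 1 at reference genes and upper quartile, 2 at both sums without milk and with a pseudocount of 5, and 8 at a common sum and at 1.5-fold. The identity median of -1.05 was 0.11, -0.51, -0.59, -0.72, -0.76 and -0.97 at the endothelial signal, reference genes, upper quartile, sum without milk, that without muscle and erythroid genes too, and a pseudocount of 5. The Vegfa difference of -1.02 was 0.15 at the endothelial signal, and the adhesion median of -0.67 was -1.17 at a common sum. In E1KO, 0 was 7 at a common sum, 1 with a pseudocount of 0.1 and 3 at 1.5-fold, and the adhesion and identity medians were -1.03 and -1.24 at a common sum. In E2KO, 1 was 0 at the endothelial signal, reference genes, upper quartile and a pseudocount of 5, 2 at a common sum and a pseudocount of 0.1, and 6 at 1.5-fold. In E1+/-E2KO, 2 was 0 at the endothelial signal, 4 at the sum without milk, muscle and erythroid genes and 7 at a common sum and at 1.5-fold, with adhesion medians of -1.28 at a common sum and -1.28 with a pseudocount of 0.1 and an identity median of -1.37 at a common sum. Rescaling moved the median of all genes for p18 against p13 in Control from -0.46 to -0.90 at a common sum and to 0.52 at the endothelial signal, with 507 genes higher and 2724 lower as deposited, 311 and 6071 at a common sum, and 2884 and 645 at the endothelial signal. For PRL in Control, 679 higher and 245 lower became 499 and 437 at reference genes, with a median of all genes of -0.19. Values below 0.5 FPKM, as for Sele without PRL, set the precision of its folds, since depth is unknown. The cause of these changes was not tested.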
